A study of Mus musculus with 12 samples.

Results

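The genes described are the 10 members of 3 families of transcription factors that act in newly born neurons: the SoxC genes Sox4, Sox11 and Sox12, the Onecut genes Onecut1, Onecut2 and Onecut3, and the Ebf genes Ebf1, Ebf2, Ebf3 and Ebf4. They were chosen by family membership, by symbol, from the 38720 genes in each of 2 deposited tables, and all 10 passed the filter on low values in both tables. RNA was sequenced from newborn (P0) mouse retina of the C57/BL6 strain. In the mutant (mKO), Cre recombinase expressed from the Math5 locus (Math5-Cre) deletes floxed exons of both copies of Ezh2, whose product is the enzyme of polycomb repressive complex that methylates histone H3 at lysine 27. Math5 (Atoh7) is active in progenitors that form retinal ganglion cells (RGCs) and some other neurons, so the deletion reaches a part of the retinal cells and not all of them. The paper calls the Cre line a knock-in, so mKO may also differ from the controls at Math5. The design cannot tell effects of that apart from those of the Ezh2 deletion. The controls are labelled wild type (WT), and whether they carried the floxed allele without Cre is not given in the labels. Retinas were dissociated and RGCs were drawn out with magnetic beads against Thy-1 (CD90); the cells that remained are the non-RGCs. There were 3 libraries from separate RNA extractions in each of the 4 groups (mKO RGCs, WT RGCs, mKO non-RGCs and WT non-RGCs), 12 in all, and the number of pups behind a library is not given in the sources used here, so p-values measure the spread between these extractions.

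SoxC proteins bind DNA through an HMG box and switch on genes of neuronal differentiation; in the developing retina Sox4 and Sox11 are known to be needed for RGC formation. Onecut proteins carry a cut domain and a homeodomain, are found in early retinal precursors, and are known to act in the formation of horizontal cells and RGCs, among other early neurons. Ebf proteins, also called COE or early B-cell factors, are helix-loop-helix factors with an early role in RGCs and in the choice between retinal neurons. Genes of this kind are known targets of polycomb repression in many cell types, and CG-rich promoters are where the complex is commonly found.

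The deposited values are group means, from which the whole reads of each library were recovered; within a group they are lettered A, B and C in order of falling depth. Libraries held between 7139633 reads on genes (mKO non-RGC library C) and 13014004. Genes with reads numbered 22732 to 23492 per library in mKO RGCs, at 12391602 to 13014004 reads. In WT RGCs they numbered 20695 to 21211, at 10600964 to 12328717 reads. The numbers were 20511 (library C) to 22528 in mKO non-RGCs and 20072 to 20712 in WT non-RGCs. The cause of this difference was not tested. Values below are reads divided by the authors' size factors within a table, called normalized reads, unless the scale over all 12 libraries is named. A gene is called where limma's adjusted p-value, by Benjamini-Hochberg over all genes tested, is under 0.05, and differences are mKO minus WT on the scale of log2(normalized reads + 1), which understates changes of low genes.

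The sequences just before the starts of 6 genes are shown because every mKO library was below every WT library in both fractions for the 3 SoxC genes (Sox4 in non-RGCs did not pass the test), and likewise for Ebf4, whereas Ebf1 was called higher in non-RGCs and Ebf3 lower in RGCs alone. Each is from RefSeq on GRCm38.p6, runs 5′ to 3′ from 250 to 21 bases before the start, and has CG dinucleotides in capitals. Of the 10 genes, 7 had an entry in the table of starts. A CG reads the same on both strands, and 91.1% of all 32851 windows of 230 bases held at least 1, with a median of 5.
Sox4 chr13:28953720-28953949 minus strand: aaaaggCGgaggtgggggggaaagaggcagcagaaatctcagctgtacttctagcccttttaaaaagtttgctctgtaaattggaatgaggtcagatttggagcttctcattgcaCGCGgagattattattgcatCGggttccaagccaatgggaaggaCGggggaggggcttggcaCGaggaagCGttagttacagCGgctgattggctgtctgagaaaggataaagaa
Sox11 chr12:27342739-27342968 minus strand: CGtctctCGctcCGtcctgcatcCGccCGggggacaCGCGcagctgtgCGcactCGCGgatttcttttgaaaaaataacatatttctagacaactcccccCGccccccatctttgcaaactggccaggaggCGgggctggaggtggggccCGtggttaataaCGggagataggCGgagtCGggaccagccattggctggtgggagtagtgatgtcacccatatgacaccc
Sox12 chr2:152398067-152398296 minus strand: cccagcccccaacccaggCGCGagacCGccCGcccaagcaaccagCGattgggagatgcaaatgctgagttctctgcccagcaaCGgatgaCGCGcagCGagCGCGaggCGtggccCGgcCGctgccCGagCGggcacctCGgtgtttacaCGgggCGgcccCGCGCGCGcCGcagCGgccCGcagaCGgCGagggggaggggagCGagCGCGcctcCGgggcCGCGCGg
Ebf1 chr11:44619978-44620207 plus strand: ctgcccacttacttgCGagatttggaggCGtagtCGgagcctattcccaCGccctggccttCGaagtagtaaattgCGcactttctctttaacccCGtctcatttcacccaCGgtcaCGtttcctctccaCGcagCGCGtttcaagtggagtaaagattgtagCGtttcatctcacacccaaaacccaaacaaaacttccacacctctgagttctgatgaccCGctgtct
Ebf3 chr7:137314466-137314695 minus strand: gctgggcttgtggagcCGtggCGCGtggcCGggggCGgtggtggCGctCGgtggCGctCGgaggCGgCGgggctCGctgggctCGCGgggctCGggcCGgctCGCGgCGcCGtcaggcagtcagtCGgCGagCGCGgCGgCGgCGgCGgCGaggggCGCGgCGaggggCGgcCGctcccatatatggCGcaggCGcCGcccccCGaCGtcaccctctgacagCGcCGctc
Ebf4 chr2:130295689-130295918 plus strand: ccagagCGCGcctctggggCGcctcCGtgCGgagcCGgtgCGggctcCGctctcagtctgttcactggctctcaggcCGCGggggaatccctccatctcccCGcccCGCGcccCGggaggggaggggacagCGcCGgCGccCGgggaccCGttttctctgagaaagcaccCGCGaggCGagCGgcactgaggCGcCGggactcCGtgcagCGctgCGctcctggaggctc
The Sox4 window held 8 CGs, a number that 40.1% of windows reached, and the Sox11 window 16, which 21.6% reached. The Sox12 window held 35, a number that 1.84% of windows reached. The Ebf1 window shown is before the second of its 2 starts in the table and lies between annotated exons. It held 14 CGs, a number that 25.6% of windows reached, and the Ebf3 window held 41, a number that 0.484% reached. The Ebf4 window also lies between annotated exons and held 28, which 5.47% reached. Of the windows not shown, that of the first Ebf1 start held 8 (40.1%) and that of Onecut1 held 30 (4.14%). The windows of Sox4, Sox11, Sox12 and Ebf4, the shown genes with mKO below WT in both fractions, ranged from 8 to 35 CGs.

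Sox4 is a gene of a single exon on chromosome 13 (28948919 to 28953713, minus strand) and Sox11 is one on chromosome 12 (27334264 to 27342574, minus strand). Sox12 is on chromosome 2 (152393611 to 152398063, minus strand), Onecut1 on chromosome 9 (74861921 to 74891781, plus strand), Ebf1 on chromosome 11 (44617317 to 45008091, plus strand) and Ebf3 on chromosome 7 (137193673 to 137314445, minus strand), all on GRCm38. Sox4, Ebf1, Ebf2 and Ebf3 overlap annotated genes of the opposite strand, and whether counting used strand is not given in the sources used here, so reads of an antisense partner cannot be told apart from theirs. Onecut1 and Onecut3 overlap an annotated gene of the same strand each, which strand would not tell apart.

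Facts of the whole series bear on what follows. Ezh2 had 1424 ± 63.0 (SD, n = 3) normalized reads in mKO RGCs and 1358 ± 277 in WT RGCs, and 2169 ± 315 against 1982 ± 260 in non-RGCs, which did not pass the test (adjusted p = 0.637 and 0.584). Without WT RGC library C the difference in RGCs was 0.25 and was called (adjusted p = 0.00419). The reads are of the whole gene, and no count of the deleted exons was made. Atoh7 (Math5) had 64.8 ± 21.4 normalized reads in mKO RGCs and 153 ± 121 in WT RGCs, which did not pass (adjusted p = 0.164). In non-RGCs Atoh7 had 148 ± 28.5 in mKO and 241 ± 18.1 in WT and was called lower (-0.71, adjusted p = 0.0492). Thy1, the antigen of the sort, had 1424 ± 2.29 and 2374 ± 156 normalized reads in mKO and WT RGCs, against 79.9 ± 13.1 and 5.28 ± 3.78 in mKO and WT non-RGCs. Of 10 RGC markers (Rbpms, Pou4f1, Pou4f2, Pou4f3, Isl1, Sncg, Nefl, Nefm, Thy1 and Gap43), 8 were called lower in mKO RGCs (21.2% of all genes tested) and 8 were called higher in mKO non-RGCs (4.18%). Their summed level on the 12-library scale was 24175 to 28125 in WT RGCs, 19012 to 19628 in mKO RGCs, 4081 to 4900.1 in mKO non-RGCs and 2632 to 2790.1 in WT non-RGCs; none was at 0. Of 9 progenitor markers, 3 were called lower in mKO RGCs and 0 in either direction in mKO non-RGCs; their sum was highest in library C within the WT RGCs (20819 against 13097 and 14045), and no sum among the mKO RGCs passed 13793. Photoreceptor markers (5 of 6 lower in mKO non-RGCs, 4 of 6 in RGCs) and amacrine markers (2 of 7 and 4 of 7) were called lower only, beside 6.43% of all genes in non-RGCs, and horizontal cell markers had 1 of 4 higher and 1 of 4 lower in RGCs, and 1 of 4 lower in non-RGCs. All 4 blood markers and both tested pigment epithelium markers were called higher in mKO in both fractions, with summed pigment levels of 924 to 1013 in mKO and 215 to 366 in WT non-RGCs. Astrocyte markers had 1 called lower of 3 tested in each fraction, endothelial and pericyte markers 1 of 5 lower in RGCs and 0 in non-RGCs, and microglia and lens markers were not called in either. The part of these cell types in the results below was not tested.

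The log2 difference between mKO and WT moved with the GC content of exons. This was seen over genes of known GC content whose mean reached 50 (12262 in RGCs and 11713 in non-RGCs). Its median was 0.35 in RGCs for the 20% of these genes lowest in GC content and -0.45 for the 20% highest. In non-RGCs the medians were 0.17 and -0.34. The 10 genes span much of that range, from 42.3% in Ebf1 and 42.6% in Onecut2 to 62.6% in Ebf4. Values are therefore also given from a second fit, in which the dependence of each library on the GC content and on the read density (reads per base of exon) of genes had been taken out; it is called the fit with trends removed. In that fit 1 of the 10 RGC markers was called in RGCs (Pou4f1, lower) and 5 in non-RGCs (Pou4f2, Sncg, Nefl, Nefm and Thy1, higher), no photoreceptor, horizontal cell or progenitor marker was called in either fraction, and of the amacrine markers 1 was called in RGCs (Slc6a9) and 0 in non-RGCs; the 4 blood markers were called in both, and the pigment markers 1 in RGCs and 2 in non-RGCs. Atoh7 was not called with trends removed in RGCs (-0.79, adjusted p = 0.378) or in non-RGCs (-0.51, adjusted p = 0.146). Scaling libraries by total reads on genes instead of size factors moved the median of all genes to 0.12 in RGCs and 0.15 in non-RGCs and turned round no member's direction in either fraction.

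**Figure D1:**
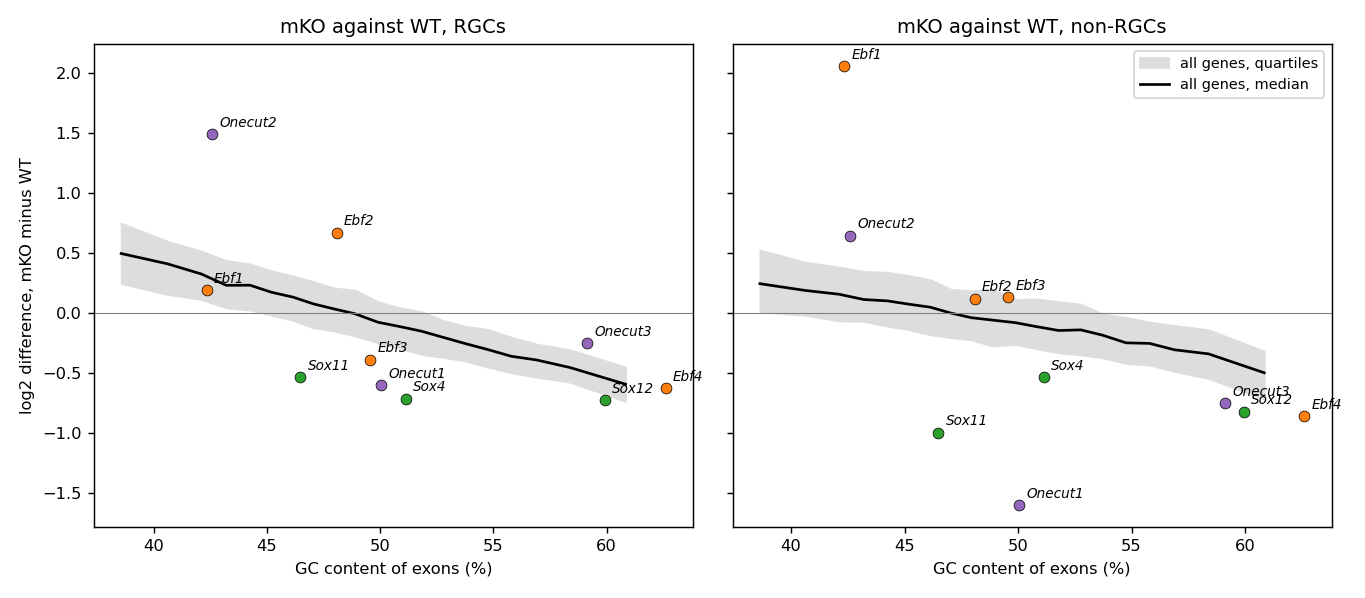
log2 difference (mKO minus WT) of the 10 genes against the GC content of their exons, for RGCs (left) and non-RGCs (right). The line and band are the median and quartiles, in bins of GC content, of all genes whose mean reached 50. Sox4, Sox11, Sox12 and Onecut1 lie below the band in both fractions, Ebf3 in RGCs, and Onecut3 and Ebf4 in non-RGCs; Onecut2 lies above it in both, Ebf2 and Onecut3 in RGCs, and Ebf1 in non-RGCs.

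In RGCs, 7 of the 10 genes were called between mKO and WT: Onecut2 and Ebf2 higher, and Sox4, Sox11, Sox12, Ebf3 and Ebf4 lower. Of all 16085 genes tested, 16.3% were called higher and 21.2% lower, so 2 of 10 higher is near the background and 5 of 10 lower is above it. That background also holds genes of low level. Called lower too were 8 of 10 RGC markers, 4 of 6 photoreceptor markers and 15 of the 39 neurogenic network genes listed below. Among progenitor markers it was 3 of 9, and among other Sox genes 2 of 8. With scaling by total reads the calls over all genes were 3857 higher and 2238 lower, in place of 2622 and 3405. The median difference of the 10 was -0.46, beside -0.0024 over all genes tested. In 3 of the 10 genes the mKO libraries were all above the WT libraries, and in 5 all below, beside 24.8% and 28.2% of all genes tested. With trends removed, 3 of the 10 were called (Onecut2 higher, Sox4 and Sox11 lower), beside 6.32% of genes.

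SoxC genes fell together in RGCs. Sox4 had 1961, 2103 and 2092 normalized reads in mKO libraries A, B and C and 3179, 3306 and 3642 in the WT libraries, so that the groups did not overlap. Sox4 fell by 0.72 on the log2 scale (SE 0.067, adjusted p = 0.000674). With trends removed it fell by 0.32 and was still called (adjusted p = 0.025). In a bulk library, fewer cells that express a gene and less of its RNA per cell cannot be told apart. Sox11, which acts beside Sox4 in RGC formation, had 1099, 1276 and 1343 normalized reads in mKO and 1772, 1762 and 1849 in WT. The groups again did not overlap, and Sox11 fell by 0.54 (SE 0.081, adjusted p = 0.00281), or by 0.62 with trends removed (adjusted p = 0.0147). Sox12, the SoxC factor known as the weakest activator of the family, had 1903, 2008 and 1954 normalized reads in mKO and 3282, 3155 and 3282 in WT. Sox12 fell by 0.73 (SE 0.049, adjusted p = 0.000644), and its exons are 59.9% GC. With the GC trend alone removed the difference was -0.20 and was still called (adjusted p = 0.0281). With both trends removed it was -0.075 and was not called (adjusted p = 0.317).

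Of the Onecut genes, 1 was called in RGCs. Onecut2 had 1219, 1181 and 1548 normalized reads in mKO RGCs and 522, 529.8 and 364 in WT RGCs, so every mKO library lay above every WT library. The difference of 1.49 (SE 0.17, adjusted p = 0.00105) is a 2.80-fold rise, and with trends removed it was 1.07 (adjusted p = 0.0281). Onecut1, also called HNF6 and needed for horizontal cells, had 141, 181 and 224 normalized reads in mKO and 308, 306 and 215 in WT. The mKO library C lay above the WT library C, so the groups overlapped, and the difference of -0.61 (SE 0.21) was not called (adjusted p = 0.0613); without WT RGC library C it was -0.78 and was called (adjusted p = 0.00819). Onecut3 had 147, 173 and 218 against 233, 244 and 166, a difference of -0.25 that was not called (adjusted p = 0.367) and was 0.097 with trends removed, with the sign turned round.

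Among the Ebf genes, Ebf3 had 3510.2, 3631 and 3732 normalized reads in mKO RGCs and 5011, 4985 and 4291 in WT RGCs. It fell by 0.39 (SE 0.073, adjusted p = 0.00646), with no overlap. With the GC trend alone removed it was -0.32 and still called (adjusted p = 0.0438). With both trends removed it was -0.073 and was not called (adjusted p = 0.631). Ebf1, the factor of the family first known from B cells, had 3699, 3993 and 4072 against 3602, 3581 and 3129; every mKO library was above every WT library, and the difference of 0.19 (SE 0.074) did not pass (adjusted p = 0.0806). It was called with scaling by total reads (0.31, adjusted p = 0.00918) and was -0.081 with the GC trend alone removed. Ebf2 had 427, 362 and 350.1 against 291, 277 and 167, a rise of 0.67 (SE 0.22, adjusted p = 0.0478) that was lost without mKO RGC library A, B or C in turn (adjusted p = 0.148, 0.108 and 0.0974) and with trends removed (0.50, adjusted p = 0.229). Ebf4 had 334, 379.9 and 388 against 581, 548 and 569.5, a fall of 0.63 (SE 0.083, adjusted p = 0.00179). Its exons are the richest of the 10 in GC, and with trends removed its difference was -0.18 and was not called (adjusted p = 0.205); with the GC trend alone removed it was 0.022.

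**Figure D2:**
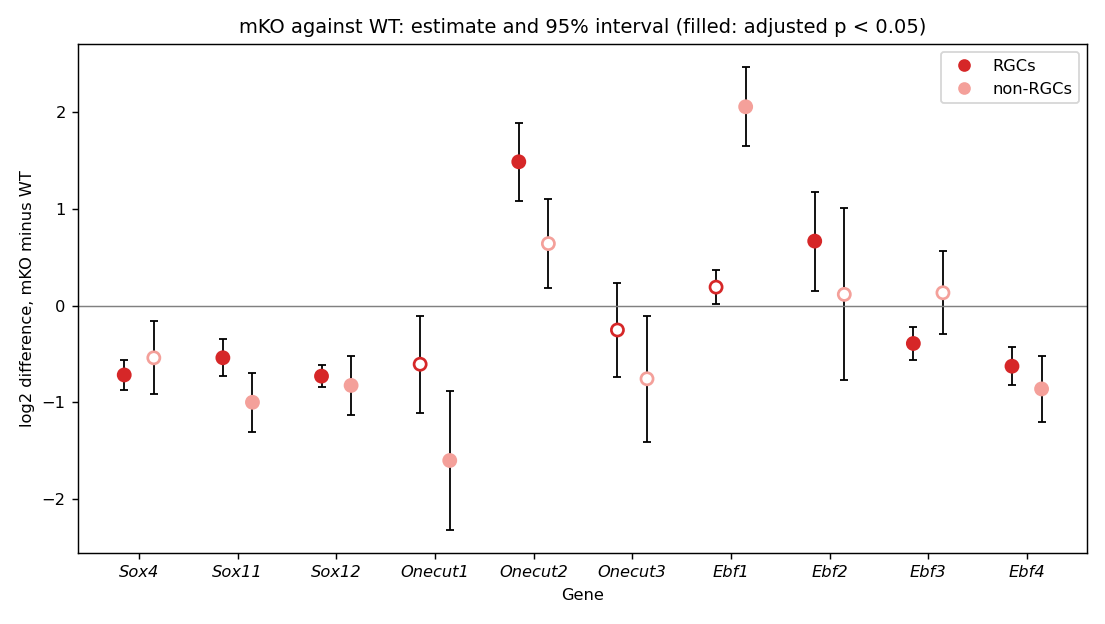
log2 difference, mKO minus WT, of each gene in RGCs (red) and non-RGCs (pink), with 95% intervals from limma; filled points passed an adjusted p of 0.05. Onecut2 is the highest in RGCs (1.49) and Ebf1 in non-RGCs (2.06); the 3 SoxC genes are below 0 in both.

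In non-RGCs, 5 of the 10 genes were called: Ebf1 higher, and Sox11, Sox12, Onecut1 and Ebf4 lower. Of the 15326 genes tested there, 4.18% were called higher and 6.43% lower (641 and 985 genes, or 1346 and 448 with scaling by total reads). The median of the 10 was -0.65, beside -0.026 over all genes. The mKO libraries were all above the WT libraries in 2 of the 10 genes and all below in 6, beside 17.5% and 19.2% of genes tested. With trends removed, 3 were called (Ebf1 higher, Sox11 and Onecut1 lower), beside 1.68% of genes. Leaving out mKO non-RGC library B left 2 called, and leaving out mKO non-RGC library C, the shallowest, 7. The shares of all genes called in those fits are not given, so these counts have no background beside them.

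Ebf1 rose in non-RGCs. It had 381, 469 and 425 normalized reads in mKO non-RGCs and 89.3, 102 and 114 in WT non-RGCs, with raw reads of 494, 489 and 301 against 99, 105 and 109. The difference of 2.06 (SE 0.18, 95% interval 1.65 to 2.47, adjusted p = 0.00319) is a 4.16-fold rise, and it was 1.78 with trends removed (adjusted p = 0.00931). It was called in all 6 fits that left out a library, at 1.97 to 2.14. Ebf3, the other Ebf gene of high level in RGCs, had 461, 463 and 339 normalized reads in mKO non-RGCs against 343, 344 and 465, a difference of 0.13 (SE 0.19, 95% interval -0.30 to 0.56, adjusted p = 0.671), and Ebf2 had 40.1, 30.7 and 22.6 against 18.9, 24.2 and 46.9. In the same libraries 8 of the 10 RGC markers were called higher, with summed levels of 4081 to 4900.1 in mKO and 2632 to 2790.1 in WT; the part of RGCs in the rise of Ebf1 was not tested. Ebf4 had 319.8, 350.1 and 335 against 713, 575 and 549.5, a fall of 0.86 (SE 0.15, adjusted p = 0.0132) that was -0.46 and not called with trends removed (adjusted p = 0.087).

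Sox11 fell by 1.00 in non-RGCs (SE 0.14, adjusted p = 0.0063), from 1658, 1659 and 2037 normalized reads in WT to 978, 799.9 and 897 in mKO. It fell by 1.03 with trends removed (adjusted p = 0.0081) and was called in all 6 fits that left out a library. Sox12 had 1368, 1502 and 1648 against 2395, 2512 and 3127 and fell by 0.82 (SE 0.14, adjusted p = 0.0101), with a value of -0.33 that was not called once trends were removed (adjusted p = 0.124). Sox4 had 1805, 2083 and 2889 against 2959, 3143 and 3584; every mKO library was below every WT library, but the difference of -0.54 (SE 0.17) was not called (adjusted p = 0.0698). Without mKO non-RGC library C it was -0.73 and was called (adjusted p = 0.0212).

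Onecut1 fell by 1.60 (SE 0.32, adjusted p = 0.0185), from 139.8, 144 and 269 normalized reads in WT non-RGCs to 72.4, 63.3 and 41.0 in mKO non-RGCs. Reads behind these values were few (94, 66 and 29 in mKO), and the gene was at -1.67 with trends removed (adjusted p = 0.0422) and not called without mKO non-RGC library B (adjusted p = 0.071). Onecut2 had 1176, 834 and 649.6 normalized reads in mKO and 519, 526 and 613 in WT, a difference of 0.64 (SE 0.21, adjusted p = 0.0734) that was called without mKO non-RGC library C (0.84, adjusted p = 0.0284) and with scaling by total reads (0.81, adjusted p = 0.0391). Onecut3 had 90.9, 94.9 and 49.4 against 131, 106 and 150.1, and was not called (-0.76, adjusted p = 0.119).

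**Figure D3:**
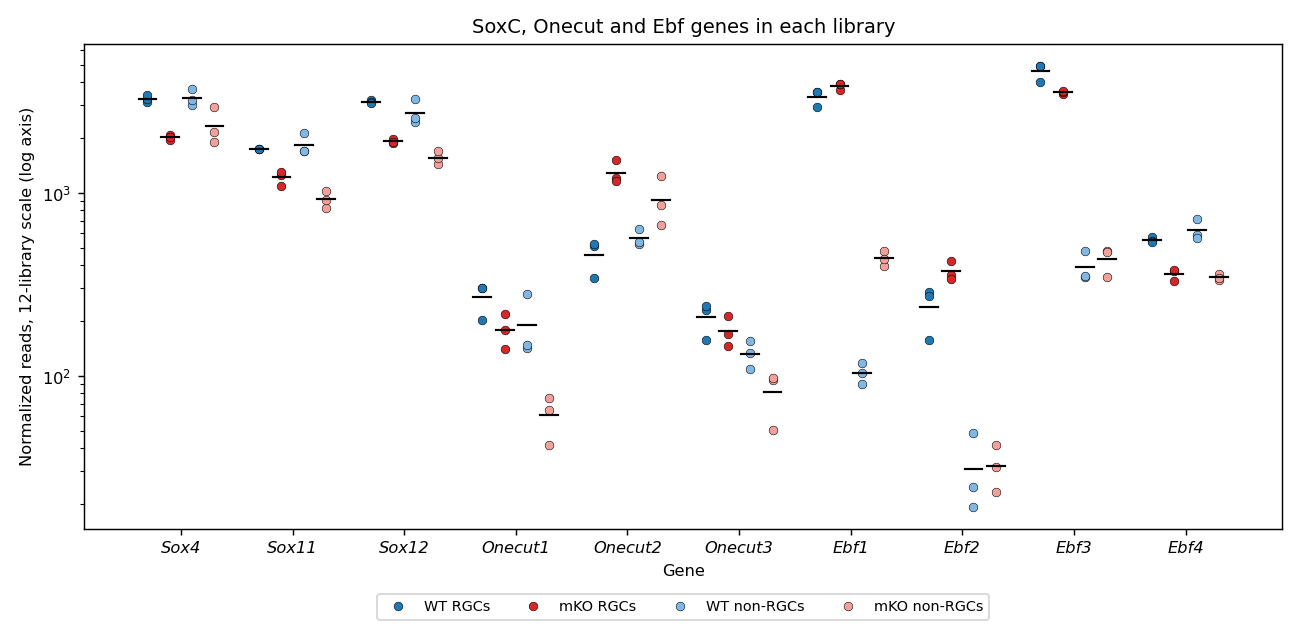
Normalized reads of each gene in each of the 12 libraries, on the 12-library scale with a log axis; bars are group means of 3 libraries. In WT the non-RGC means of Ebf1, Ebf2 and Ebf3 are 3.11%, 12.9% and 8.49% of the RGC means.

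Whether the effect of the mutation differed between the fractions was tested in 1 fit over the 12 libraries, as the effect in RGCs minus that in non-RGCs. Of 16502 genes, 16 were called, or 0.0970%, all of them with a lower effect in RGCs, and Ebf1 was the single member of the 10 among them (-1.87, SE 0.17, adjusted p = 0.00084), first in order of p. Ebf1 was called in all 12 fits that left out a library, from -1.96 to -1.77. Thy1, Sncg, Nefl, Nefm and Pou4f2, all RGC markers, were among the other 15. For the remaining 9 genes the difference between fractions did not pass: Sox11 was at 0.46 (adjusted p = 0.524), Onecut2 at 0.84 (0.524), Onecut1 at 0.99 (0.536) and Ebf3 at -0.53 (0.534). At an unadjusted p under 0.05, Sox11, Onecut1 and Onecut2 were above 0 and Ebf3 below 0, beside 1499 of the 16502 genes in either direction. So the call of Onecut2 in RGCs and not in non-RGCs, or of Onecut1 in non-RGCs and not in RGCs, does not show a difference between fractions.

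The members were not placed alike between fractions in WT retina. On the 12-library scale Ebf1 had 3533, 3535 and 2939.9 normalized reads in WT RGCs and 90.5, 104 and 117 in WT non-RGCs, a difference of 4.995 (SE 0.12, adjusted p = 4.64e-11). Ebf3 had 4914, 4921 and 4032 against 347, 349.9 and 480.5 (3.56, SE 0.15, adjusted p = 1.94e-09) and Ebf2 had 285, 273 and 157 against 19.2, 24.6 and 48.5 (2.97, SE 0.34, adjusted p = 1.22e-05). These 3 of 10 were called higher in WT RGCs, beside 26.4% of genes, and 0 were called lower, beside 22.6%. At an unadjusted p under 0.05, 4 were higher (with Onecut3) and 0 lower, beside 9137 of all 16502 genes in either direction. The other 7 did not pass: Onecut3 was at 0.64 (adjusted p = 0.0646), Onecut1 at 0.55 (0.142), Sox12 at 0.21 (0.117), Sox4 at -0.01 (0.958), Sox11 at -0.062 (0.677), Ebf4 at -0.18 (0.215) and Onecut2 at -0.32 (0.231). Ebf4 was called lower in WT RGCs with the GC trend removed (-0.37, adjusted p = 0.0155) and with both trends removed (-0.41, adjusted p = 0.00384). The 95% interval of Sox4 was -0.31 to 0.29, and that of Sox11 -0.31 to 0.18. Markers of other cells were also present in the WT RGC libraries. Progenitor markers summed to 13097.5 to 20819.5 there and 25137 to 31904 in WT non-RGCs, with 8 of 9 called lower in WT RGCs. Photoreceptor markers summed to 6119 to 8592 and 12441 to 13927 (5 of 6 lower), and all 4 microglia markers were called higher in WT RGCs. The part of these cells in the differences between fractions was not tested. In mKO retina 7 of 10 were called higher in RGCs (29.1% of genes) and 0 lower (25.4%): Ebf2 (3.52), Ebf1 (3.13), Ebf3 (3.04), Onecut1 (1.55), Onecut3 (1.15), Sox11 (0.40) and Sox12 (0.30). At an unadjusted p under 0.05, 8 were higher and 0 lower, beside 9902 of all 16502 genes in either direction. These comparisons share their RGC libraries with those of genotype, and the Sox12 call rests on a small difference that was kept in 1 of 6 fits that left out a library.

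Expressed as a share, the level of Ebf1 in WT non-RGCs was 3.11% of that in WT RGCs and in mKO non-RGCs 11.4% of that in mKO RGCs. Ebf3 went from 8.49% to 12.3% and Ebf2 from 12.9% to 8.66%. Across the 10 RGC markers the share was 0.235% to 33.9% in WT, with a median of 7.12%, and 4.88% to 44.3% in mKO, with a median of 22.0%; it was higher in mKO for all 10. Shares of Thy1 (0.235% and 5.92%) and Pou4f3 (0.702% and 4.88%) moved the most in proportion, and Isl1, which also marks other retinal neurons, went from 33.9% to 42.9%.

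**Figure D4:**
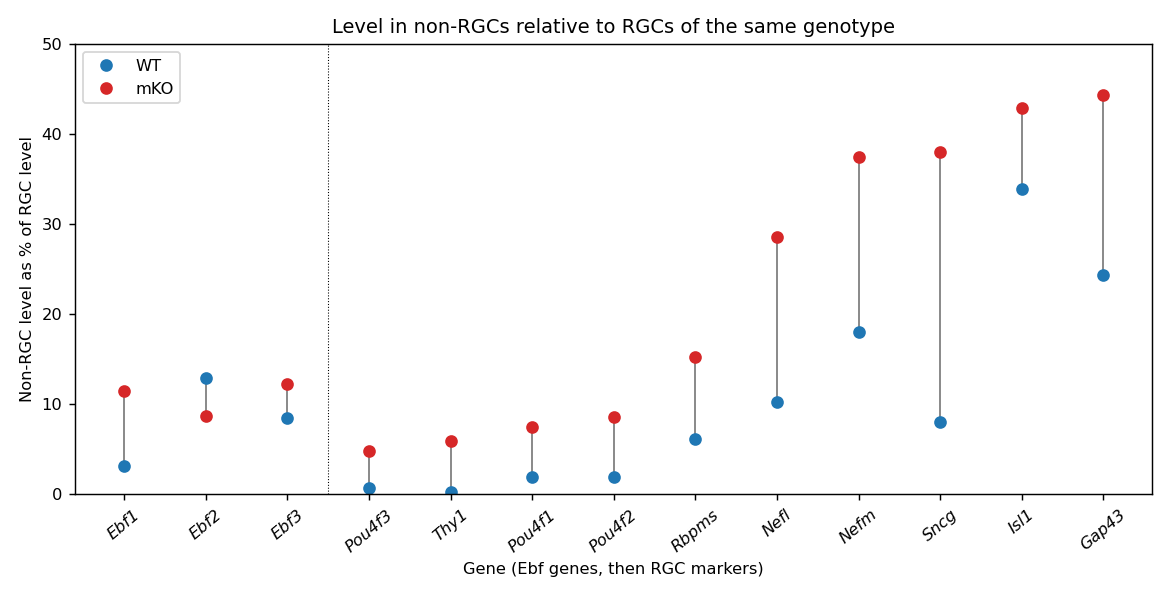
Level of each gene in non-RGCs as a percent of its level in RGCs of the same genotype, on the 12-library scale, for the Ebf genes enriched in RGCs and for the 10 RGC markers; each point is a ratio of means of 3 libraries. The mKO point is above the WT point in all 10 markers, in Ebf1 and in Ebf3, and below it in Ebf2.

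Compared per length, as reads per kilobase of exon, scaled to a fixed total of reads on genes (RPKM), Sox12 (58.2 ± 1.95, SD, n = 3) and Sox4 (56.3 ± 4.48) were the highest of the 10 in WT RGCs, and their ranges overlapped. Next were Ebf3 (41.2 ± 3.18), Ebf1 (28.2 ± 1.95), Sox11 (17.3 ± 0.643), Ebf4 (14.0 ± 0.534) and Onecut1 (5.36 ± 0.993), each with all libraries above those of the next. Onecut3 (3.58 ± 0.677), Ebf2 (2.82 ± 0.764) and Onecut2 (2.32 ± 0.44) were lowest, and each overlapped the next. In mKO RGCs Onecut2 was at 7.05 ± 0.988 and stood seventh, above Ebf2 (4.77 ± 0.574), Onecut1 (3.84 ± 0.822) and Onecut3 (3.27 ± 0.607), of which each overlapped the next. In non-RGCs Sox4 had the highest mean (60.0 ± 4.21 in WT, where its range overlapped that of Sox12, and 47.3 ± 11.2 in mKO), and Ebf2 was lowest (0.383 ± 0.178 and 0.453 ± 0.131).

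By Pearson correlation of log2 values over the 12 libraries among the 13487 genes whose mean reached 50 in any group, the genes of most alike pattern were Ctbp1, Eif4g2 and Maged1 for Sox4 (r 0.998 to 0.995), Ralgds, Anks1 and Zfp316 for Sox11 (0.988 to 0.974) and Gpsm1, Lrfn4 and Wdr6 for Sox12 (0.993 to 0.990). For Onecut2 they were Bod1l, Chic1 and Nsun6 (0.964 to 0.962), for Onecut1 Rai1, Zfp423 and Fam168a (0.987 to 0.982) and for Onecut3 Neurl1b, Asap2 and Mast2 (0.972 to 0.969). Ebf1 was closest to D930028M14Rik, Lck and Slc18a2 (0.993 to 0.992), Ebf2 to Alcam, Pcdh11x and Gnb4 (0.995), Ebf3 to Cacng5, Tvp23a and Slc24a3 (0.998) and Ebf4 to Mllt6, Phf13 and Mbd6 (0.962 to 0.958). These r values are descriptions over libraries that share depth, fraction and base composition, and they carry no test.

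A list of 39 other genes of the neurogenic network was chosen with earlier results of these data known, so shares of all genes beside it are descriptive. Some of its genes, among them Pou4f1, Pou4f2 and Pou4f3, are also markers counted above. Of the 39, 16 were called in RGCs (1 higher and 15 lower, beside 16.3% and 21.2% of all genes), with a median of -0.30. In non-RGCs 13 were called (4 higher and 9 lower, beside 4.18% and 6.43%), with a median of -0.28. With trends removed, 2 were called in each fraction, beside 6.32% and 1.68% of all genes: Pou4f1 and Stmn2 lower in RGCs, and Pou4f2 higher and Insm1 lower in non-RGCs. Without WT RGC library C, 26 were called in RGCs. In non-RGCs, fits that left out a library called 2 (without mKO library B) to 12. These counts too have no share of all genes beside them. In RGCs, Insm1, a zinc finger factor of new neurons, fell by 1.06 (SE 0.15, adjusted p = 0.00208), from 2427 ± 554 to 1145 ± 62.7 normalized reads, and Tubb3, neuronal tubulin, fell by 0.68, from 3175 ± 164 to 1977 ± 53.6. Neither was called with trends removed (Insm1 -0.41, adjusted p = 0.141; Tubb3 -0.064, adjusted p = 0.46). Others of the 8 smallest p-values were the RGC factor Pou4f1 (-0.63), the microtubule regulator Stmn2 (-0.54), the RNA-binding Elavl3 (-0.41), the receptor Notch1 (-0.76), the factor Tfap2a (-0.49) and the Notch target Hes5 (-0.79). Of these, Elavl3 (0.030), Notch1 (-0.36), Tfap2a (-0.36) and Hes5 (-0.27) were not called with trends removed. In non-RGCs Notch1 fell by 1.13 (SE 0.13, adjusted p = 0.0048) and Insm1 by 0.97 (SE 0.13, adjusted p = 0.00603). Pou4f2 and Pou4f3, both RGC factors, were higher by 1.72 and 3.02, and Zfp423 (-0.65), a partner of Ebf proteins, Myt1 (-0.46), Plxna1 (-0.89) and Tfap2a (-0.48) were lower. With trends removed, Pou4f2 was at 1.66 and Insm1 at -0.49, both called (adjusted p = 0.0387 and 0.0472), and the other 6 were not: Notch1 (-0.81, adjusted p = 0.0677), Pou4f3 (3.14), Zfp423 (-0.32), Myt1 (-0.39), Plxna1 (-0.55) and Tfap2a (-0.32).

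**Figure D5:**
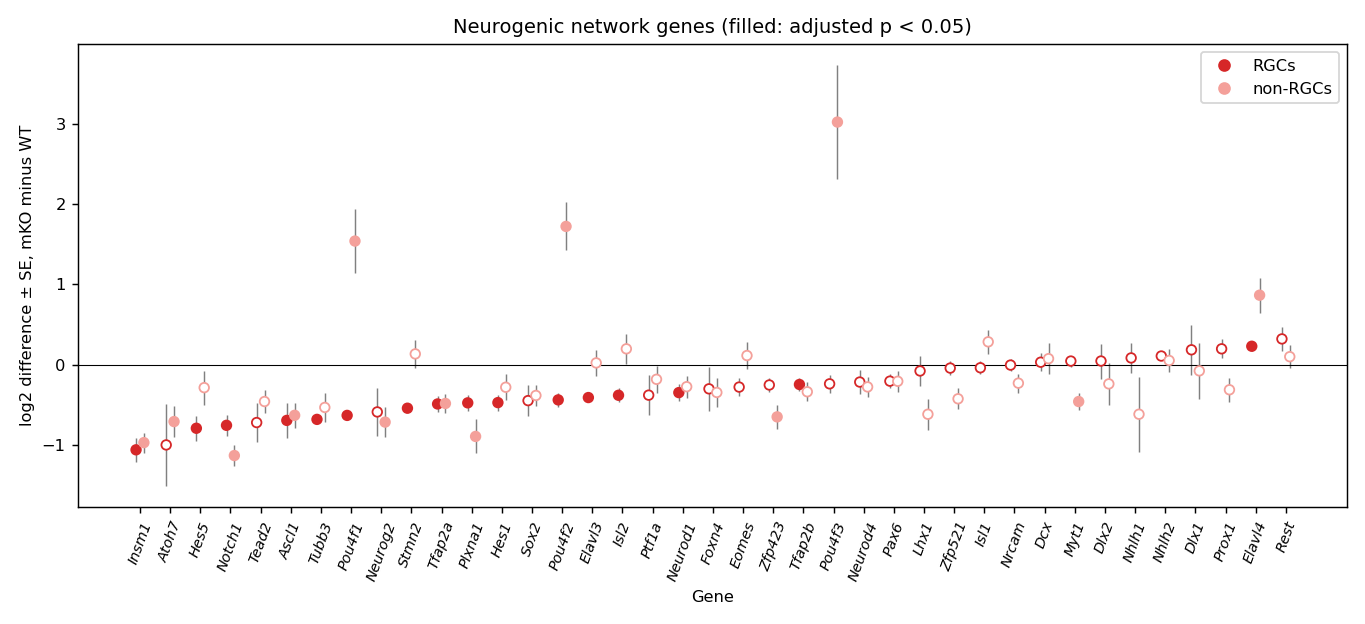
log2 difference ± SE, mKO minus WT, of 39 neurogenic network genes in RGCs (red) and non-RGCs (pink), ordered by the RGC value; filled points passed an adjusted p of 0.05. Pou4f1, Pou4f2 and Pou4f3 are below 0 in RGCs and above 0 in non-RGCs.

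Of 10 other Sox genes, 8 passed the filter on low values in RGCs and 10 in non-RGCs. In RGCs 1 rose (Sox5) and 2 fell (Sox3 and Sox9), and in non-RGCs 1 rose (Sox21) and 2 fell (Sox3 and Sox8), beside the same shares of all genes as above, so in RGCs the counts are near the background. With trends removed Sox5 (0.25), Sox9 (-0.36), Sox8 in non-RGCs (-0.17) and Sox21 (1.496) were not called (adjusted p = 0.287, 0.161, 0.304 and 0.0607). Sox3, a SoxB gene of progenitors, fell by 1.30 in RGCs (SE 0.13, adjusted p = 0.000816), from 649 ± 120.1 to 261 ± 8.23 normalized reads, and by 0.97 in non-RGCs (SE 0.15, adjusted p = 0.00822). Its exons are 66.4% GC, and with trends removed it was at -0.82 in RGCs (adjusted p = 0.0197) and -0.48 in non-RGCs (adjusted p = 0.0526). Sox2, another SoxB gene of progenitors, was at -0.45 and -0.38 and was not called in either fraction.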

How the data were processed

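RNA of 12 retinal libraries was sequenced as single-end reads. Per the labels and the study's methods, the authors aligned reads to mm10 with STAR 2.3.1z4, assigned them to genes with featureCounts and used DESeq for scaling and testing. The labels also hold the terms primary and dedup, which name primary alignments and the removal of duplicate reads. The part of that removal in the trend with read density was not tested. The 2 deposited tables hold, per gene, group means of counts divided by size factors (signal values), which were used, and the authors' fold changes, log2 values and p-values, which were not. Columns of per-sample values not used numbered 0. Whole reads per library were recovered from the 15 significant digits of the means: each gene with reads had exactly 1 combination in its group (25690 genes in mKO RGCs, 22931 in WT non-RGCs), and of at least 991 shifted means tried per group as controls 0 matched. Recovered columns carry no replicate number.

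Reads divided by the authors' size factors, or by median-of-ratios factors over all 12 libraries for comparisons between fractions, were tested as log2(value + 1) with limma 3.58.1 (R 4.3.3) with a mean-variance trend, with genes kept where either group's mean reached 10 (any group's for 12 libraries). The recovery of reads and the limma fit were also run on simulated data. Recovery was exact for all 3872 and all 3878 genes with reads in its simulations. Simulated counts for the fit had the same dispersion in every gene and no trend with GC content, unlike these data. The fits with trends removed were not simulated. Count models were not run. With 3 against 3 libraries the smallest exact permutation p is 0.1, so none was run. GC content and length are from GENCODE M21; trends were taken by lowess (share 0.3) or over 300 neighbouring genes, from genes whose mean reached 50. Intervals are at 95%. The 10 genes, the lists and the tests were chosen with earlier results of these data known. Named genes were the 10 members, of the network list the 8 called genes with the smallest p per comparison, the 3 genes most alike each member, and Ezh2 and Thy1. Other Sox genes, Atoh7, Isl2 and markers named beside a result were picked after their values were seen.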

Additional observations from a re-analysis of the deposited data

Results flagged for a closer look

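Ebf1 was singled out because the effect of the mutation differed between the fractions by the test of the difference itself: the effect in RGCs minus that in non-RGCs was -1.87 on the log2 scale (SE 0.17, adjusted p = 0.00084), with a difference of 0.19 in RGCs and 2.06 in non-RGCs. Every mKO library was above every WT library in both fractions. No other member passed this test, and groups of 3 libraries are too small for the test of single outlying libraries used for larger groups. Of all 16502 genes 16 passed, among them the RGC markers Thy1, Sncg, Nefl, Nefm and Pou4f2, with the same sign as Ebf1. The part of RGCs among the non-RGCs of each genotype in this difference was not tested.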

How the results depend on the processing

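No paired analysis was possible because the recovered libraries carry no replicate number. With trends in GC content and read density removed, 3 members were called in RGCs (7 in the reported fit) and 3 in non-RGCs (5). With the GC trend alone removed, 5 were called in RGCs and 2 in non-RGCs. For the difference in effect between fractions, 3 members (Ebf1, Onecut1 and Onecut2) passed an unadjusted p under 0.05 with a change of 1.5-fold or more. By adjusted p only 1 passed (Ebf1). Of all 16502 genes, 489 passed the unadjusted thresholds with a higher effect in RGCs and 319 with a lower one. Leaving out 1 library at a time gave 6 to 8 members called in RGCs, 2 (without mKO library B) to 7 in non-RGCs, 1 between the fractions, and 3 to 5 (without WT non-RGC library C) in WT RGCs against WT non-RGCs. The cause of these changes was not tested, and the shares of all genes called in fits without a library are not given here.

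Signs that turned round included those below, among them those of Ebf4 and Elavl3, which were called in the reported fit. Other called genes of the lists turned round in RGCs with both trends removed. These included Isl2 (-0.38 to 0.27), Plxna1 (-0.48 to 0.070) and the RGC marker Nefm (-0.45 to 0.026). Genes that were not called turned round too, such as Pou4f3 in RGCs (-0.24 to 0.19). With the GC trend removed in RGCs, Onecut3 was 0.24, Ebf1 -0.081, Ebf4 0.022 and Ezh2 -0.11; with both trends removed, Onecut3 was 0.097, Elavl3 0.030 and Ezh2 -0.059. Between WT fractions, Sox4 was 0.023 and Sox11 0.027 with the GC trend removed, and Sox11 0.076 with both. Over fits without 1 library, Ebf2 in non-RGCs ranged from -0.15 to 0.48, the difference in effect between fractions from -0.32 to 0.0068 for Sox4 and from -0.030 to 0.18 for Sox12, and the difference between WT fractions from -0.077 to 0.076 for Sox4 and from -0.12 to 0.045 for Sox11. The pseudocount of 0.5 changed no member's call. Without the filter on low values Ebf2 in RGCs was not called (adjusted p = 0.0568). Depth limits Onecut1, Onecut3 and Ebf2 in non-RGCs, with 16 to 258 reads per library.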
